A study of Homo sapiens with 51 samples.

Results

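The gasdermins are a family of pore-forming proteins, and the rows of 5 members, GSDMA, GSDMB, GSDMC, GSDMD and GSDME, were taken by symbol from a table of 25421 gene symbols and followed through every group of the study. The family was chosen by the counts of GSDMA, which were high in one OVOL2 group of the PK45H line, so the OVOL2 contrasts of GSDMA are given as a description, without a test. A gasdermin is made as an inactive precursor, in which a carboxy-terminal domain holds back an amino-terminal domain that can insert into membranes. When a protease cuts the linker between them, the freed domain assembles into pores in the plasma membrane, through which small cytokines leave and the cell may lyse, a form of death called pyroptosis. GSDMD is the target of the inflammatory caspases, GSDME is cut by caspase-3 and GSDMB by granzyme A. GSDMC can be cut by caspase-8, and GSDMA, best known from skin and other squamous epithelia, is cut by a streptococcal protease. The counts describe transcripts only and say nothing of cleavage or pores.

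RNA was measured by PLATE-seq, in which cDNA from the 3′ end of transcripts is barcoded well by well and pooled, in 51 libraries of 5 human pancreatic ductal adenocarcinoma (PDA) cell lines. In KP4, PANC1 and PK45H there were 5 groups of 3 libraries per line: untreated cells, cells transduced with a lentivirus for mCherry (a fluorescent control protein) or for OVOL2 (a zinc-finger transcription factor of epithelial cells), and cells given either virus together with one for M2rtTA, the transactivator of doxycycline-inducible promoters. HPAFII and PATU8988S had 3 untreated libraries each. Transduction was done in triplicate at a multiplicity of infection of 2, with 8 µg/ml polybrene, and all transduced cells then received 2.5 µg/ml puromycin and 0.6 µg/ml doxycycline, with RNA collected after 6 days. Whether the untreated libraries came from separate cultures is not stated, so p-values measure only the spread between these libraries, which may be technical.

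Library totals ran from 1165399 counts (HPAFII replicate 2) to 7490556, and mitochondrial transcripts took 24.4% to 37.0% of them. All 9 ductal epithelial markers checked, keratins and EPCAM among them, had more than 3 counts in every group. OVOL2 itself stood at 4.45 ± 0.244 CPM (counts scaled to a common library total; mean ± SD, n = 3) in PK45H OVOL2 with M2rtTA, against 1.13 ± 0.606 with mCherry and M2rtTA and 1.49 ± 0.358 with OVOL2 without M2rtTA. In KP4 the OVOL2 level with OVOL2 and M2rtTA was 4.92 ± 4.69 CPM and in PANC1 2.22 ± 0.792, while untreated PATU8988S had 22.9 ± 4.20 and HPAFII 5.13 ± 3.14. How far transcript from the vector is counted under the symbol OVOL2 is not given in the sources used here.

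In the RefSeq annotation of GRCh38.p14, GSDMA lies at chr17:39963004-39977768 on the plus strand and GSDMB at chr17:39904595-39918635 on the minus strand, with ORMDL3 and LRRC3C between them. GSDME lies at chr7:24698355-24795539 on the minus strand. RefSeq promoter entries matched 2 of the 5 members, GSDMA and GSDME. The GSDMA promoter is shown because GSDMA carries the difference for which the family was chosen. The stretch is chr17:39962754-39962972 on the plus strand, 219 bases read 5′ to 3′ and ending 31 bases before the annotated start, and its capitals mark an E-box (CACCTG, a motif bound by ZEB repressors of epithelial genes) that starts at position -180.
GSDMA: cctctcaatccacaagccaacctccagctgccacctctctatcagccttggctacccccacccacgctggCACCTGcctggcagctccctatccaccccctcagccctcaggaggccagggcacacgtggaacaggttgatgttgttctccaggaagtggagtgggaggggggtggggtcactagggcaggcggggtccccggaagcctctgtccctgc
CACCTG occurred on either strand in the 250 bases before the start of 17.5% of 35116 RefSeq promoters. CCGTTA, the core of the motif bound by OVOL proteins, occurred in these bases of 2.45% of them and of neither GSDMA nor GSDME. The entries run from 250 bases before to 50 after the start, and only the 250 bases before it were read. In these bases GSDMA had 4 CpG dinucleotides and a GC content of 63.6%, and 29.3% of promoters had fewer CpG. In the same bases GSDME had 28 CpG and a GC content of 76.4%, and 84.1% of promoters had fewer CpG. The GSDME entry, at chr7:24757415-24757714, lies inside the annotated gene and not at its minus-strand start at 24795539. The median over all promoters was 11. These matches are a description of the letters and identify no bound site.

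GSDMA transcript was high in a single group. In PK45H cells given OVOL2 with M2rtTA the 3 libraries held 299, 227 and 223 GSDMA counts, or 59.8, 57.7 and 51.6 CPM (56.4 ± 4.26). In PK45H with mCherry and M2rtTA they held 10, 13 and 18 counts, or 1.52, 2.44 and 2.65 CPM (2.20 ± 0.602). The lowest OVOL2 library was far above the highest control library, and the log2 difference was 4.72 (SE 0.24). Because GSDMA was chosen for this contrast, no p-value is given for it. In these bulk libraries, more cells with the transcript and more transcript per cell cannot be told apart.

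OVOL2 without M2rtTA left GSDMA in PK45H close to its controls. The OVOL2 libraries stood at 2.64, 3.46 and 2.73 CPM (2.94 ± 0.445), the mCherry libraries at 1.71, 1.90 and 2.97 (2.20 ± 0.679) and the untreated libraries at 2.32, 1.39 and 2.34 (2.02 ± 0.544). These ranges overlap, and the log2 difference between OVOL2 and mCherry was 0.34 (SE 0.30). In KP4, GSDMA was at 3.49, 3.83 and 2.52 CPM with OVOL2 and M2rtTA against 5.30, 1.77 and 3.08 with mCherry and M2rtTA, a log2 difference of -0.03 (SE 0.49). In PANC1 the corresponding values were 3.12, 2.72 and 1.95 against 4.0, 3.70 and 3.10 CPM, a log2 difference of -0.46 (SE 0.39). The OVOL2 libraries thus lay within the control range in KP4 and reached below it in PANC1. Without M2rtTA the GSDMA differences were -0.30 (SE 0.53) in KP4 and 0.27 (SE 0.40) in PANC1.

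Over the 48 libraries outside that group, GSDMA ran from 1 to 24 counts with a median of 11.5, and from 0.249 to 6.77 CPM with a median of 2.42. The highest of these, 6.77 CPM, was HPAFII replicate 2, the library with the smallest total, where it came from 9 counts. Untreated lines were tested, since they played no part in the choice of the family. GSDMA was at 1.58, 6.77 and 2.40 CPM in HPAFII, 0.249, 2.03 and 0.295 in PATU8988S, and at means of 1.81 ± 0.979 in KP4, 2.33 ± 0.137 in PANC1 and 2.02 ± 0.544 in PK45H. In the 10 pairs of lines, 29.9%, 28.7% and 25.2% of genes passed an adjusted p of 0.05 for HPAFII against KP4, PANC1 and PK45H, 32.5%, 29.3% and 28.3% for PATU8988S against them, 20.2% for HPAFII against PATU8988S, 21.9% for KP4 against PANC1, 23.5% for KP4 against PK45H and 25.6% for PANC1 against PK45H. For GSDMA no pair of lines passed edgeR's quasi-likelihood test, and the widest gap, HPAFII above PATU8988S, was 1.81 (SE 0.76, adjusted p = 0.107) with overlapping libraries. Without PATU8988S replicate 2, the highest of that line, PATU8988S passed as lower than HPAFII, PANC1 and PK45H (adjusted p = 0.0227, 0.0266 and 0.0419). PATU8988S held 11 GSDMA counts, 9 of them in replicate 2, so these calls rest on libraries with 1 count each. HPAFII and PATU8988S, the lines with the most OVOL2 transcript when untreated, differed together from the other lines by -0.23 (SE 0.45, adjusted p = 0.727), a value that ran from -1.05 to -0.02 when single libraries were left out and passed in none of these.

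**Figure D1:**
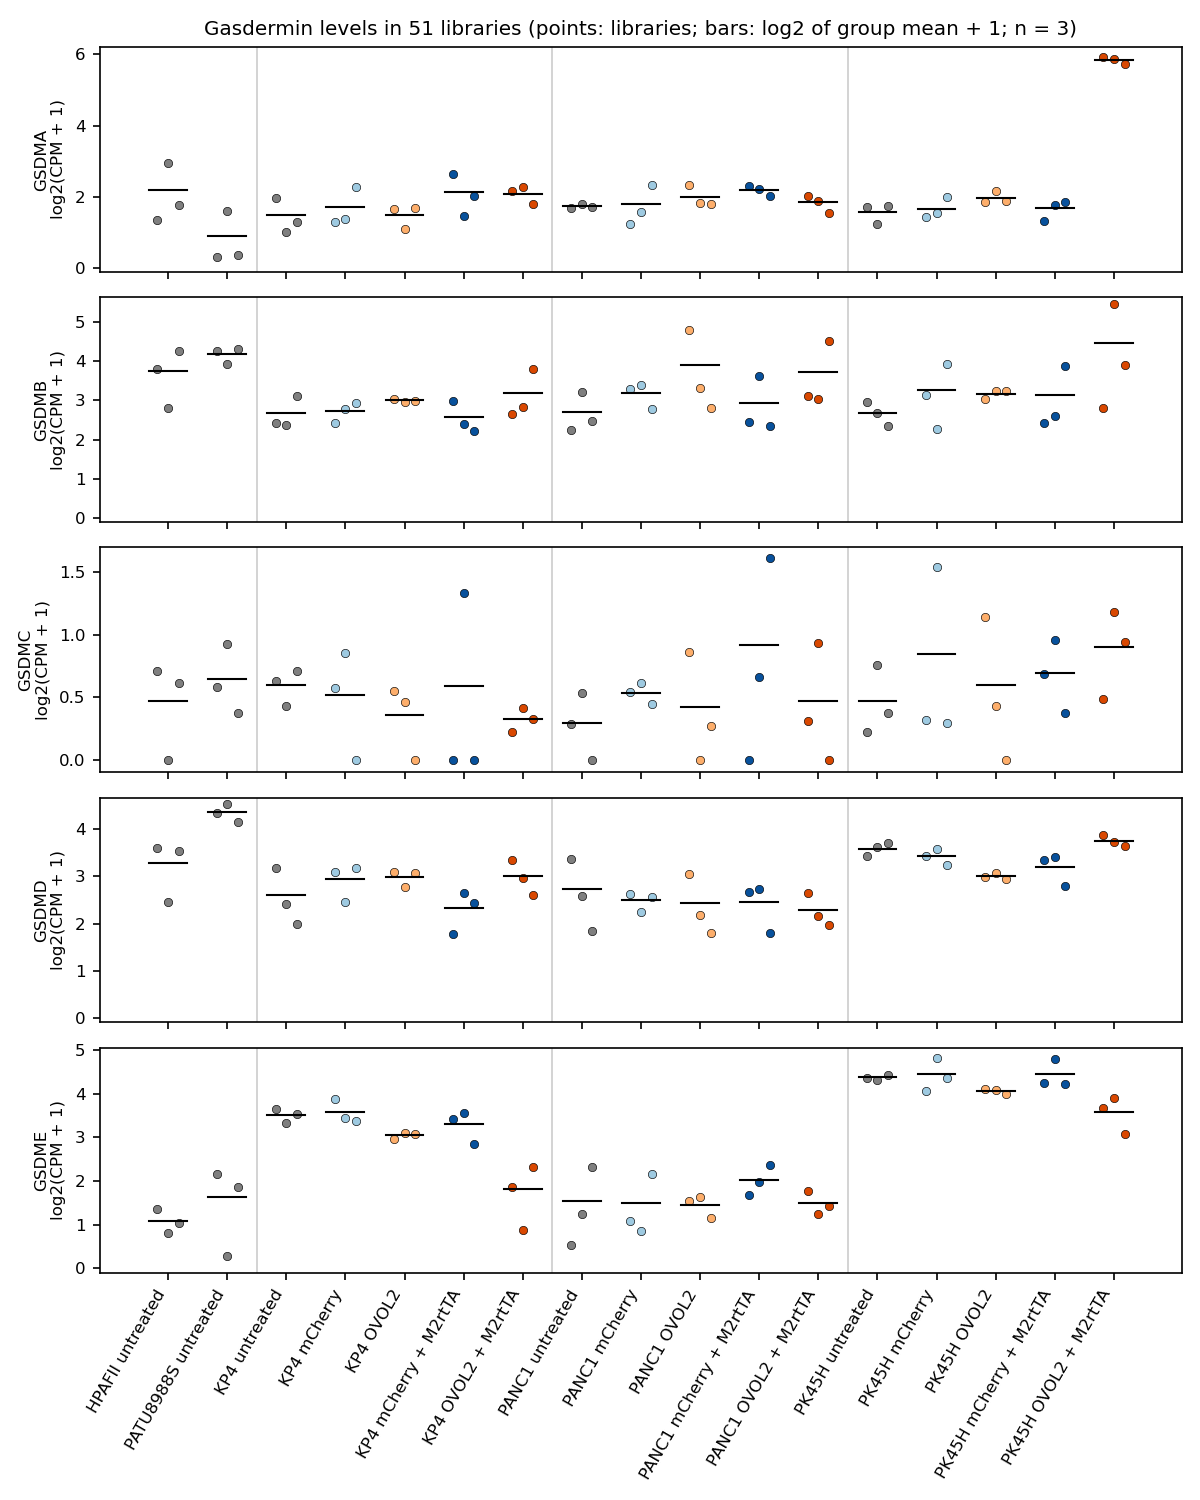
Level of each gasdermin in all 51 libraries as log2(CPM + 1), 1 panel per gene with its own y axis; points are libraries and bars the log2 of the group mean plus 1 (n = 3). GSDMA is high in the 3 libraries of PK45H OVOL2 with M2rtTA (51.6 to 59.8 CPM), and GSDME is low in KP4 OVOL2 with M2rtTA (2.51 CPM) against 7.26 to 11.0 CPM in the other KP4 groups.

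The GSDMA pattern was set beside that of other genes in the same group. Every PK45H OVOL2 library with M2rtTA was above every other library for 160 genes, and 127 of these had at least 5 CPM in each of the 3 libraries. GSDMA was 1 of these and the 1 gene whose lowest library there was at least 5 times the highest other library, with a ratio of 7.62. The family was chosen for this height of GSDMA, so its place among these genes describes that choice and is no separate support. By group means, 15 genes with at least 5 CPM in this group reached at least 5 times the next highest group. In 10 of them, among which ADAT2, CERS5, MFN1 and DNAJB5, at least 1 of the 3 libraries was below the highest other library, so that their means rest on high values in part of the group. GSDMA, IL11, FXYD2, CST1 and ARL14EPL were the 5 whose libraries were all above. IL11, a cytokine of the IL-6 family, stood at 27.4, 24.6 and 22.2 CPM, and its highest other library was at 6.10. By Pearson correlation over the 17 group means, on log2(CPM + 1) and among 12383 other genes, IL11 was also the gene most like GSDMA (r = 0.94), a value that this 1 group largely sets. The next by that measure were ADAT2, MFN1, DNAJB5 and CERS5, whose means are carried as described. The order was not stable: with a pseudocount of 5 ADAT2 came first and IL11 was at rank 2, and over the 15 groups of KP4, PANC1 and PK45H alone IL11 was at rank 7.

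**Figure D2:**
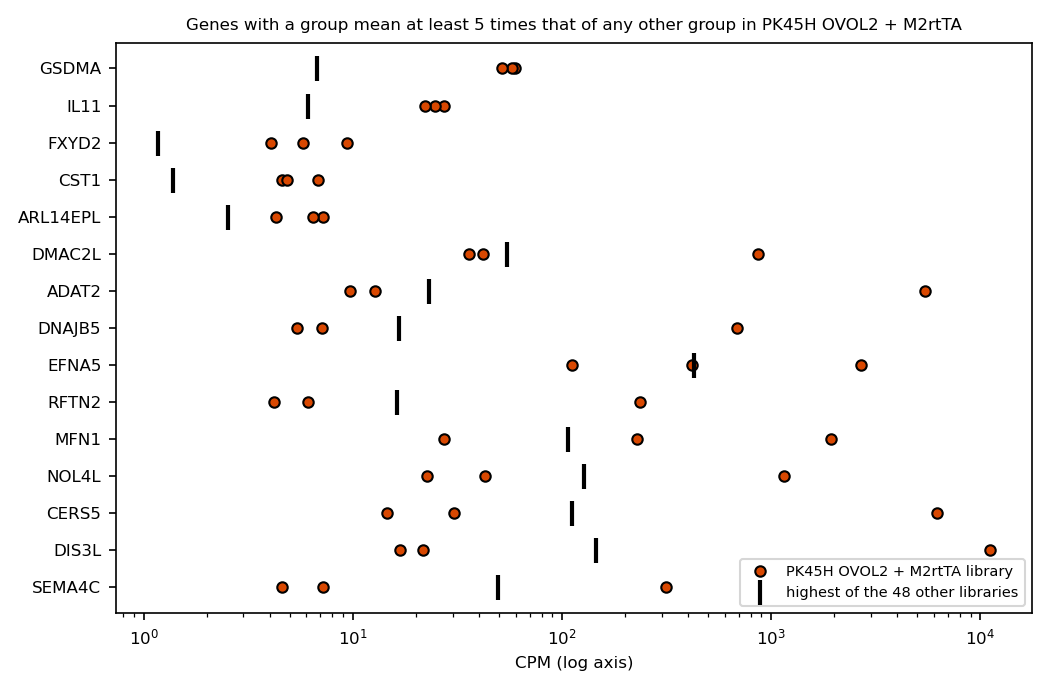
Genes whose mean in PK45H OVOL2 with M2rtTA was at least 5 CPM and at least 5 times that of any other group, on a log axis of CPM; points are the 3 libraries of that group and ticks the highest of the 48 other libraries. For GSDMA, IL11, FXYD2, CST1 and ARL14EPL all 3 points lie to the right of the tick, and for the other 10 genes at least 1 point lies to its left.

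GSDME, the gasdermin cut by the apoptotic executioner caspase-3, fell with OVOL2 and M2rtTA. In KP4 its libraries stood at 2.66, 0.834 and 4.03 CPM (2.51 ± 1.60) with OVOL2 and M2rtTA and at 9.72, 10.8 and 6.16 (8.91 ± 2.44) with mCherry and M2rtTA. The groups did not overlap, as for 19.3% of genes in this direction, and GSDME fell by 1.87 on the log2 scale (SE 0.38, edgeR adjusted p = 0.00278) in a comparison in which 22.4% of all tested genes passed the threshold, an adjusted p under 0.05. In PK45H GSDME was at 11.8, 14 and 7.40 CPM (11.1 ± 3.35) against 18.1, 26.8 and 17.8 (20.9 ± 5.11). These groups also did not overlap, as for 20.2% of genes in this direction, and GSDME fell by 0.86 (SE 0.25, adjusted p = 0.0344), where 15.9% of genes passed. In PK45H the call was lost without OVOL2 with M2rtTA replicate 3 (-0.64, adjusted p = 0.128), without its replicate 1 (-0.91, 0.0689), without mCherry with M2rtTA replicate 2 (-0.65, 0.134) and when only the groups compared were fitted (-0.84, 0.0908).

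PANC1 had little GSDME in any group. Its libraries were at 2.40, 1.36 and 1.71 CPM with OVOL2 and M2rtTA against 2.22, 2.92 and 4.13 with mCherry and M2rtTA, and the change of -0.78 (SE 0.64, adjusted p = 0.474) did not pass, in a comparison where 13.9% of genes did. Averaged over the 3 lines, GSDME fell by 1.18 (SE 0.25, adjusted p = 0.000306), with 32.9% of genes past the threshold. A difference between the lines in this change was not shown (adjusted p = 0.420, 2 degrees of freedom; 7.56% of genes passed). Without M2rtTA the GSDME changes did not pass: they were -0.60 (SE 0.33) in KP4, -0.05 in PANC1 and -0.47 in PK45H, with adjusted p between 0.290 and 0.983, where 6.82%, 5.08% and 8.39% of genes passed. Their average was -0.35 (adjusted p = 0.366), in a comparison that 18.1% of genes passed. The difference between the changes with and without M2rtTA did not pass either, at -1.26 in KP4 (adjusted p = 0.241, with 1.43% of genes passing) and -0.39 in PK45H (adjusted p = 0.614, with 1.6%).

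The untreated lines fell into high and low levels of GSDME. PK45H was highest at 19.7, 19.1 and 20.5 CPM (19.8 ± 0.693), followed by KP4 at 11.7, 9.02 and 10.6 (10.4 ± 1.33), and their difference did not pass (-0.92 for KP4 against PK45H, adjusted p = 0.167). PATU8988S at 2.12 ± 1.69, PANC1 at 1.93 ± 1.83 and HPAFII at 1.13 ± 0.420 CPM did not differ from each other beyond their spread. KP4 was above PANC1 by 2.44 (adjusted p = 0.00665) and PANC1 stood at -3.37 against PK45H. HPAFII and PATU8988S together were below the mean of KP4, PANC1 and PK45H by a log2 difference of -2.14 (SE 0.44, adjusted p = 0.00156), in a comparison that 34.8% of genes passed. The level that GSDME reached in KP4 with OVOL2 and M2rtTA (2.51 CPM) was near that of these lines, while PK45H with OVOL2 and M2rtTA stayed at 11.1 CPM.

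GSDMD (chr8:143553387-143563062, plus strand), the gasdermin cut by caspase-1 and the other inflammatory caspases, lay above its controls in PK45H given OVOL2 with M2rtTA and below them given OVOL2 without M2rtTA, and the first of these differences passed the test. With M2rtTA its libraries stood at 13.8, 12.2 and 11.6 CPM (12.5 ± 1.15) for OVOL2 and 9.11, 9.56 and 5.89 (8.19 ± 2.00) for mCherry. All OVOL2 libraries were higher, as for 13.6% of genes, and GSDMD rose by 0.68 (SE 0.20, adjusted p = 0.0352). Leaving out 1 library ended this call in 5 of 6 cases, with changes of 0.48 to 0.80 and adjusted p up to 0.140, as did a fit of only the groups compared (adjusted p = 0.102). Without M2rtTA the OVOL2 libraries were at 6.97, 7.43 and 6.73 CPM (7.04 ± 0.357), below the mCherry libraries at 9.78, 11.0 and 8.46 (9.76 ± 1.29). The groups did not overlap, as for 28.5% of genes in that comparison, yet the change of -0.53 (SE 0.21, adjusted p = 0.150) did not pass, where 8.39% of genes did. The difference between both changes was 1.21 (SE 0.29, adjusted p = 0.0567), just outside the threshold. DESeq2, the alternative tool, gave it an adjusted p of 0.0225.

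In KP4 the GSDMD libraries were at 9.14, 6.84 and 5.04 CPM with OVOL2 and M2rtTA and at 2.43, 5.30 and 4.43 with mCherry and M2rtTA. They overlapped slightly, and the change of 0.81 (SE 0.38, adjusted p = 0.146) did not pass. In PANC1 GSDMD stood between 2.47 and 9.35 CPM in all 5 groups and its changes were -0.08 (SE 0.49) without and -0.21 (SE 0.49) with M2rtTA, with adjusted p of 0.954 and 0.830. Averaged over lines, the change with M2rtTA was 0.42 (adjusted p = 0.137). Among untreated lines PATU8988S was highest at 19.4, 22.2 and 16.8 CPM (19.5 ± 2.66), then PK45H at 11.0 ± 1.13, HPAFII at 8.75 ± 3.68, PANC1 at 5.62 ± 3.44 and KP4 at 5.11 ± 2.61. PATU8988S was above KP4 by 1.96 (adjusted p = 0.00159) and above PANC1 by 1.75 (adjusted p = 0.00435), but neighbours in this order did not pass against each other. GSDMD in HPAFII and PATU8988S together was higher than in the 3 transduced lines by 1.00 (SE 0.26, adjusted p = 0.00771).

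GSDMB, a gasdermin of epithelial cells cut by granzyme A, had a single high library in several groups. With OVOL2 and M2rtTA it was at 6.00, 43.2 and 13.9 CPM in PK45H (21.0 ± 19.6), 5.32, 6.17 and 12.8 in KP4 (8.11 ± 4.12) and 7.68, 7.25 and 21.7 in PANC1 (12.2 ± 8.23). With mCherry and M2rtTA it was at 4.41, 5.06 and 13.7 in PK45H (7.72 ± 5.19), 6.85, 4.29 and 3.66 in KP4 (4.93 ± 1.69) and 4.44, 11.3 and 4.13 in PANC1 (6.62 ± 4.05). In each line at least 1 OVOL2 library was above all controls of that line and at least 1 lay within their range. No single line passed: the changes were 1.48 (SE 0.60, adjusted p = 0.116) in PK45H, 0.70 (SE 0.37, adjusted p = 0.198) in KP4 and 0.84 (SE 0.59, adjusted p = 0.385) in PANC1. Without replicate 3 of OVOL2 with M2rtTA, the high library in both of the last lines, the changes were 0.22 in KP4 and 0.17 in PANC1. Averaged over lines GSDMB rose by 1.00 (SE 0.34, adjusted p = 0.0198). That call rested on the high libraries: it was lost without PK45H OVOL2 with M2rtTA replicate 2 (0.64, adjusted p = 0.126), without PANC1 replicate 3 of the same treatment (0.76) and without KP4 replicate 3 of it (0.85), and in a fit of only the groups compared (adjusted p = 0.0608). In PK45H alone, leaving out OVOL2 with M2rtTA replicate 1 moved the change to 1.93 (adjusted p = 0.0340), and without its replicate 2 it was 0.39 (adjusted p = 0.703).

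Without M2rtTA the GSDMB changes were 0.32, 0.75 and -0.20 in KP4, PANC1 and PK45H, with adjusted p from 0.540 to 0.891. A high single library was present there too, PANC1 OVOL2 replicate 1 at 26.5 CPM against 8.91 and 5.97 in its mates. Untreated lines gave the clearest difference in GSDMB. PATU8988S stood at 18.2, 14.2 and 18.9 CPM (17.1 ± 2.51) and HPAFII at 13.0, 6.02 and 18.1 (12.4 ± 6.07), against 5.56 ± 2.45 in PANC1, 5.42 ± 1.35 in PK45H and 5.39 ± 1.95 in KP4. HPAFII and PATU8988S together were higher by 1.49 (SE 0.24, adjusted p = 0.000186). Each of them passed against each of the 3 other lines, with adjusted p from 0.00227 to 0.0258, while they did not pass against each other (adjusted p = 0.537), and neither did KP4, PANC1 and PK45H among themselves. The PATU8988S calls were kept whichever library was left out. The HPAFII calls were not: without HPAFII replicate 3, its highest library, the difference was 1.00 against KP4, 0.88 against PANC1 and 0.98 against PK45H (adjusted p = 0.104, 0.156 and 0.118). The call against KP4 was also lost without KP4 replicate 1 or 2, that against PANC1 without HPAFII replicate 1 or PANC1 replicate 1 or 3, and that against PK45H without PK45H replicate 3.

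**Figure D3:**
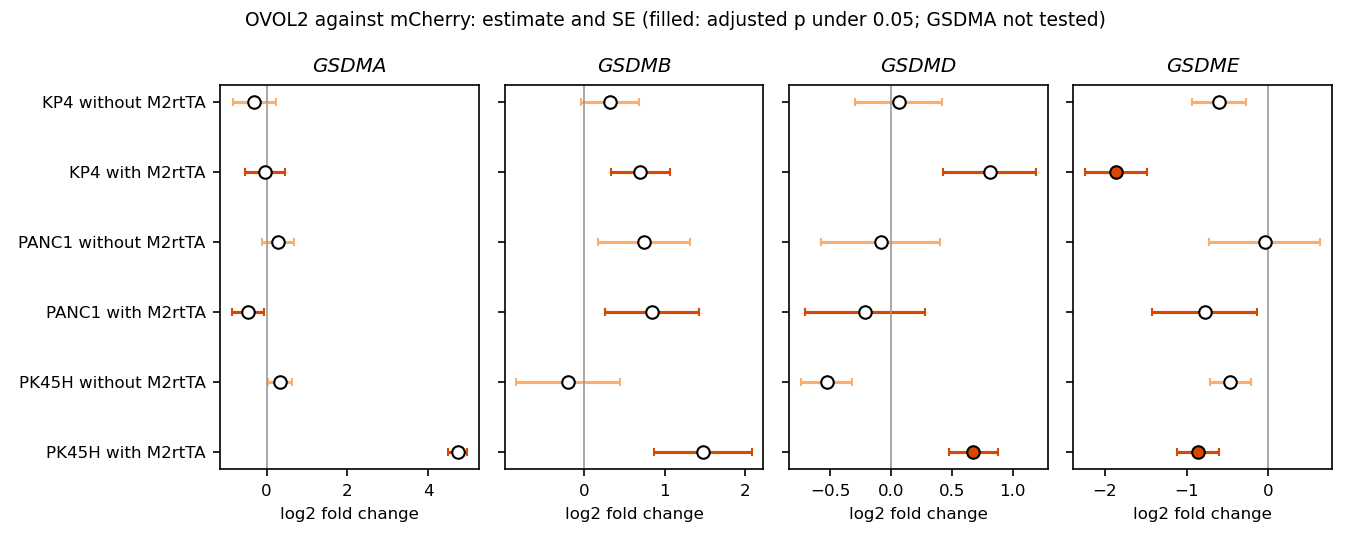
Log2 fold change of OVOL2 against mCherry for 4 gasdermins in each line, without and with M2rtTA, with bars of 1 SE; filled points passed an adjusted p of 0.05, GSDMA was not tested, and the x axes differ between panels. GSDMA is far from 0 in PK45H with M2rtTA (4.72), GSDME is lowest in KP4 with M2rtTA (-1.87) and GSDMD lies on opposite sides of 0 in PK45H (-0.53 and 0.68).

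GSDMC (chr8:129705435-129786624, minus strand) was barely detected. All 51 libraries together held 119 GSDMC counts, 38 libraries had 3 counts or fewer, 10 had none, and the most in any library was 10 (PANC1 mCherry with M2rtTA replicate 3). Its group means ran from 0.225 ± 0.226 CPM in untreated PANC1 to 0.884 ± 1.07 in PANC1 mCherry with M2rtTA, and in PK45H OVOL2 with M2rtTA the mean was 0.865 ± 0.438. It failed the filter on low counts in every fit and was not tested, and no difference between groups could be read from these counts. PJVK (pejvakin), the related protein best known from the inner ear, was equally sparse, with 146 counts in all and at most 11 in a library.

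mCherry cells against untreated cells, and M2rtTA without OVOL2, were tested as well. Virus, polybrene, puromycin and doxycycline are listed for the transduced cells only. Their parts in the first comparison cannot be told apart. Between mCherry and untreated cells, none of GSDMB, GSDMD and GSDME passed in KP4, PANC1 or PK45H, where 0%, 0.598% and 0.00736% of genes passed. Between mCherry with and without M2rtTA none passed either, where 0%, 0% and 0.0294% of genes did. In these 6 comparisons none of the 3 genes reached an unadjusted p under 0.05 in edgeR or passed with DESeq2. GSDMA is only described here, since mCherry libraries were the controls of the contrast for which it was chosen. Its largest shift was 0.60 with M2rtTA in KP4 (SE 0.51). The largest shifts, GSDMA included, were 0.79 for GSDME with M2rtTA in PANC1 (SE 0.63, adjusted p = 0.936) and 0.76 for GSDMB between mCherry and untreated cells in PK45H (SE 0.65, adjusted p = 0.833). The next was -0.69 for GSDMD with M2rtTA in KP4 (SE 0.38, adjusted p = 0.80). Pearson correlations between the 5 members over the 17 group means lay between -0.34 and 0.48, and all members share the same libraries. The genes most like GSDMB in that measure were UBALD1, AFTPH, PACS2, RGL3 and OSBPL2 (r = 0.83 to 0.87), those most like GSDMD were PTPRU, TST, HR, MSRB2 and ZDHHC20 (0.90 to 0.93), and those most like GSDME were FNDC4, KIFC3, TOMM7, CENPN and NUP155 (0.95 to 0.96).

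GSDMA and GSDMB share a stretch of 17q with other genes, so 20 neighbours were followed in the same contrasts. In PK45H with M2rtTA, 14 of the 20 were tested, 2 rose and 2 fell, beside 15.9% of all genes that passed in either direction. LRRC3C, which lies between GSDMB and GSDMA, and CSF3, beyond PSMD3, failed the filter on low counts and have no value. ORMDL3, a regulator of sphingolipid synthesis between GSDMB and GSDMA, fell by 0.51 (SE 0.14, adjusted p = 0.0246) from 29 ± 0.672 to 19.6 ± 2.09 CPM, a call lost in 6 of 13 alternatives. PSMD3, a proteasome subunit on the far side of GSDMA, was at -0.37 (SE 0.23, adjusted p = 0.316). NR1D1 and THRA, nuclear receptors whose genes overlap on opposite strands and whose reads may not be separable, rose by 0.94 (SE 0.19, adjusted p = 0.00479) and 0.97 (SE 0.18, adjusted p = 0.00221). TOP2A, a topoisomerase of dividing cells, fell with M2rtTA in all 3 lines, by 1.12 (KP4), 0.68 (PANC1) and 0.99 (PK45H), and in PANC1 the call was lost without any 1 of the 6 libraries (adjusted p up to 0.115), as it was in PK45H without mCherry with M2rtTA replicate 3 (0.0502). The median change of the tested neighbours in PK45H was 0.07, beside 0.01 for all genes tested.

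**Figure D4:**
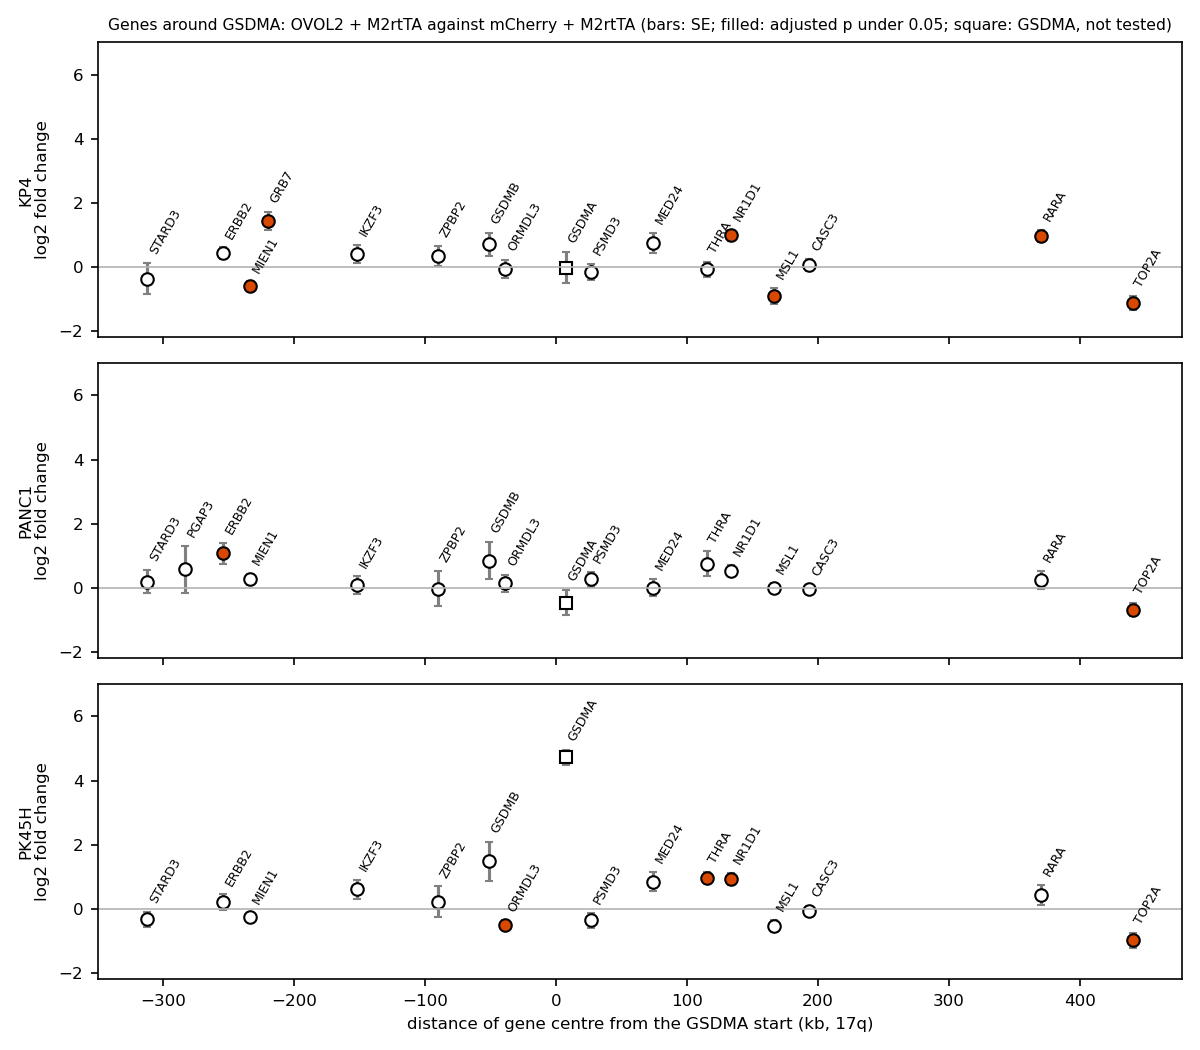
Log2 fold change of OVOL2 with M2rtTA against mCherry with M2rtTA for genes around GSDMA, by distance of the gene's centre from the GSDMA start in kb, 1 panel per line; bars are 1 SE, filled points passed an adjusted p of 0.05, and the square is GSDMA, which was not tested. In PK45H the square stands at 4.72 while the neighbouring genes tested lie between -0.99 and 1.48.

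Genes that act before and after the gasdermins were followed in the contrasts with M2rtTA. The shares of all tested genes that passed with M2rtTA, 15.9% in PK45H, 22.4% in KP4 and 13.9% in PANC1, are the background of the counts that follow, and the counts for the proteases, inflammasome genes and cytokines are small and are not read as differing from them. The list of 15 proteases held caspases, granzymes and others, and not all of them, CASP10 included, are established as cutting gasdermins. Of these, 7 were tested in PK45H and 1 passed: CASP10, an initiator caspase, rose from 7.89 ± 0.316 to 14.5 ± 0.295 CPM (0.94, SE 0.22, adjusted p = 0.0117). Of the 6 tested in KP4 and in PANC1, 0 passed in edgeR or DESeq2, and 1 in each line had an unadjusted p under 0.05. The CASP10 call was kept in the 13 alternatives run. Of 20 inflammasome sensors and adaptors, 12 were tested in PK45H, 11 in PANC1 and 10 in KP4, and 2 passed in each line. In PK45H PYCARD (ASC, the adaptor that joins sensors to caspase-1) fell by 2.33 (SE 0.65, adjusted p = 0.0261) and CARD16, a decoy of caspase-1, rose by 0.92 (SE 0.26, adjusted p = 0.0274). The PYCARD level there was 0.947 ± 0.608 CPM against 5.19 ± 1.43. PYCARD also fell in PANC1, by 0.91 (SE 0.27, adjusted p = 0.0339), where NAIP, a sensor of bacterial flagellin, rose by 1.03 (SE 0.26, adjusted p = 0.0162). In KP4 GBP2, an interferon-induced GTPase, rose by 0.90 and CARD8, another sensor, fell by 1.33 (adjusted p = 0.0169 and 0.0429). These 6 inflammasome calls were each lost when single libraries were left out. Without replicate 2 of mCherry with M2rtTA, the adjusted p reached 0.163 for PYCARD in PANC1, 0.0686 for GBP2 and 0.180 for CARD8. It reached 0.0874 for PYCARD in PK45H without OVOL2 with M2rtTA replicate 2 and 0.112 for CARD16 without mCherry with M2rtTA replicate 3, and 0.0594 for NAIP in a fit of only the groups compared.

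Among 5 tested cytokines and alarmins that can leave through pores, IL1A (interleukin-1α) rose in PK45H by 0.92 (SE 0.16, adjusted p = 0.00173) and HMGB1, a chromatin protein released by dying cells, fell by 0.69 (SE 0.13, adjusted p = 0.00294). HMGB1 fell in KP4 as well, by 0.64 (SE 0.11, adjusted p = 0.000775), and 0 of the 5 passed in PANC1 in edgeR or DESeq2, with 2 at an unadjusted p under 0.05. A further list held 18 genes linked to gasdermins more broadly, with LAMTOR and RRAG genes, BAX, BAK1 and XIAP among them. All were tested, and 3 passed in PK45H, 4 in PANC1 and 7 in KP4, beside the 15.9%, 13.9% and 22.4% of all genes. RRAGC, ZDHHC9 and LAMTOR2 passed with M2rtTA in the same direction in KP4, PANC1 and PK45H. The share of all genes that did so in all 3 lines was not computed, so this is not read as a result about the list. RRAGC, a Rag GTPase of the lysosomal surface, rose by 1.51, 1.16 and 0.73, and ZDHHC9, a palmitoyltransferase, by 0.76, 0.81 and 0.52. LAMTOR2, a scaffold of the Rag GTPases, fell by 2.14, 1.48 and 1.38. The ZDHHC9 call in PK45H was lost in 7 of 13 alternatives, and the RRAGC and LAMTOR2 calls were kept in each of the 3 lines in the 13 alternatives run.

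ESCRT-III, a complex that removes membrane damaged by pores, was followed together with proteins that recruit or disassemble it, PDCD6, PDCD6IP, VPS4A and VPS4B. All 16 genes were tested, and those that passed rose. With M2rtTA, 2 rose in PK45H, 3 in KP4 and 4 in PANC1, beside 7.45%, 9.91% and 5.76% of all genes tested that rose. In any line 0 fell in edgeR or DESeq2 or at an unadjusted p under 0.05. Of all genes tested, 8.4%, 12.5% and 8.18% fell in PK45H, KP4 and PANC1 past the adjusted threshold in edgeR. CHMP2A rose in KP4 by 1.14 (SE 0.16, adjusted p = 0.000247) and in PK45H by 1.07 (SE 0.22, adjusted p = 0.00434), and CHMP4C in PANC1 by 1.41 (SE 0.28, adjusted p = 0.00363). The CHMP4C call in KP4 was lost in 5 of 13 alternatives, without OVOL2 with M2rtTA replicates 1, 2 or 3 among them. The median changes over the 16 genes were 0.12, 0.49 and 0.16 in KP4, PANC1 and PK45H, beside 0.01, 0.02 and 0.01 for all genes.

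GSDMA is known from squamous epithelia, so 54 gene symbols of the cornified envelope and squamous differentiation were followed. Most had few counts: 9 were tested in PK45H and 10 each in KP4 and PANC1. Genes of this list could pass the filter through the group where they were high. Its counts and adjusted p-values are therefore given as a description and not as support for a change in the list. The counts are not read against the 7.45%, 9.91% and 5.76% of all genes that rose in PK45H, KP4 and PANC1. In PK45H with M2rtTA 3 rose: CST6 (cystatin M/E, a protease inhibitor of the epidermis) from 0.716 ± 0.792 to 20.6 ± 3.49 CPM (adjusted p = 1.33e-05), PPL (periplakin, a cornified envelope protein) by 2.06 (SE 0.25, adjusted p = 0.000116), and CRCT1, whose level of 0.878 ± 0.348 CPM stayed close to the floor. In KP4 KRT17 rose by 4.10 (SE 0.63, adjusted p = 0.00041), PPL rose by 0.80 and SCEL, sciellin, fell by 1.57 (SE 0.21, adjusted p = 0.000128). In PANC1 GRHL3, a transcription factor of the epidermal barrier, rose by 3.06 (SE 0.49, adjusted p = 0.000827). The PPL call in KP4 and the CRCT1 call in PK45H were lost in 9 of 13 and 6 of 11 alternatives. With OVOL2 without M2rtTA in PK45H, where GSDMA stayed close to its controls, CST6 and CRCT1 also passed as higher and CASP14 as lower.

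**Figure D5:**
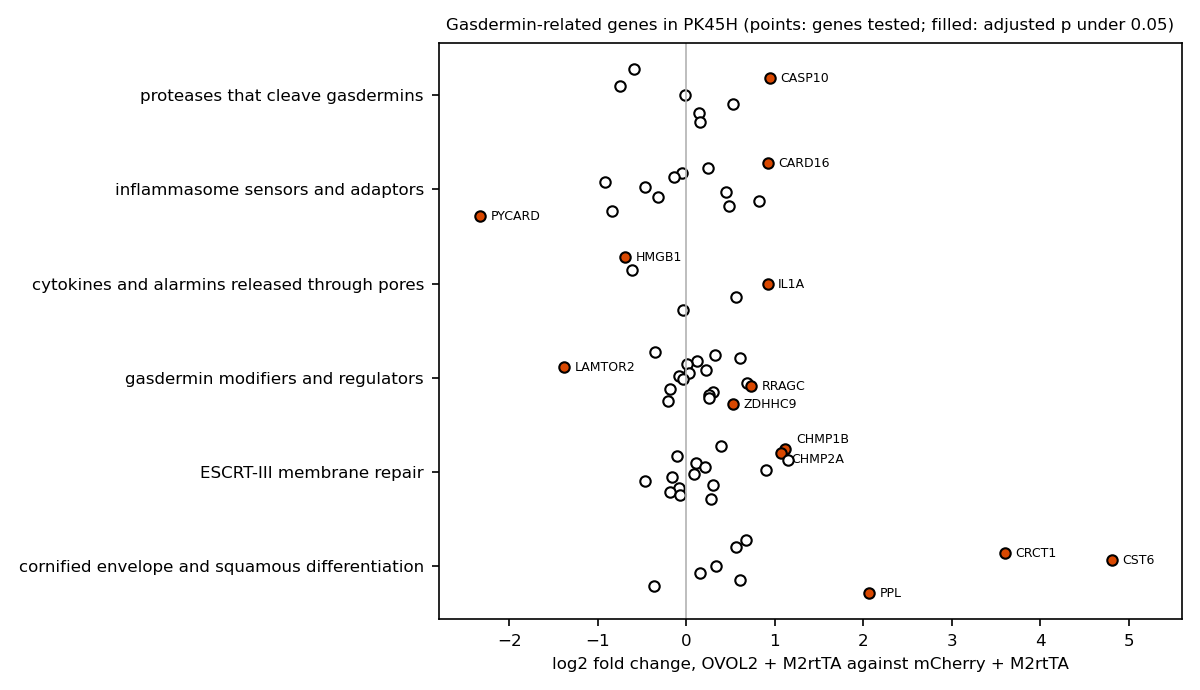
Log2 fold change of OVOL2 with M2rtTA against mCherry with M2rtTA in PK45H for the tested genes of 6 lists, 1 point per gene; filled and named points passed an adjusted p of 0.05. PYCARD (-2.33) and LAMTOR2 (-1.38) are the lowest of the named genes and CST6 the highest, and most points lie within 1 log2 unit of 0.

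Markers of other cell types were summed in the same libraries. The 8 fibroblast markers came to 31.6 to 37.2 CPM in PK45H OVOL2 with M2rtTA against 13.2 to 16.5 with mCherry and M2rtTA, to 45.4 to 54.7 against 23.7 to 32.7 in KP4, and to 51.1 to 70.0 against 30.0 to 38.9 in PANC1. In PK45H 6 of the 8 had more than 3 counts in a library with OVOL2 and M2rtTA, and PDGFRB was at 0. The 10 leukocyte markers came to 8.60 to 13.2 against 5.01 to 7.14 CPM in PK45H, to 6.15 to 10.8 against 3.85 to 4.42 in KP4 and to 6.00 to 8.78 against 6.62 to 14.3 in PANC1, with CD3D at 0 in each of these groups. The 8 acinar and endocrine markers came to 5.32 to 7.62 against 0.147 to 1.31 CPM in PK45H with M2rtTA, with AMY2A and INS at 0 in the OVOL2 libraries, and to 6.25 to 7.60 with OVOL2 without M2rtTA. Only 2 of the 8 had more than 3 counts in a library with OVOL2 and M2rtTA. With OVOL2 without M2rtTA only 1 did, and CPA1, INS, SST and CHGA were at 0. The 9 ductal markers came to 4672 to 4817 against 1983 to 2154 CPM in PK45H with M2rtTA and to 4583 to 4920.0 with OVOL2 without it. The 5 endothelial markers came to 11.1 to 15.5 against 7.37 to 14.6 CPM in PK45H with M2rtTA. The part of these markers in the gasdermin changes was not tested.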

How the data were processed

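Per the labels' protocols, PLATE-seq libraries were made from 100 ng of total RNA per sample. The authors deposited raw counts per gene symbol. kallisto 0.44.0 and the build GRCh38 are named in the submitters' processing notes, and how reads shared between similar genes or amplification copies were handled is not given in the sources used here. Replicates of a group differed by more than sampling noise, and 0 columns were left unmatched. Intervals of counts would cover counting error only.

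The tests were run with edgeR 4.0.16 under R 4.3.3: filterByExpr by group, TMM scaling, the two-sided quasi-likelihood test, and Benjamini-Hochberg adjustment over all genes tested (threshold 0.05). Each of KP4, PANC1 and PK45H had one fit of 15 libraries. Averages over lines and differences between them came from a fit of 45, and untreated lines from a fit of 15. Levels are CPM with TMM factors over all 51 libraries. Standard errors follow from the test statistic. The test was also run on counts simulated for PK45H, with the same spread for all genes and no single high libraries. That run says nothing of calls that rest on such libraries.

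The members and gene lists were chosen with earlier results of these data known. Named genes were the gasdermins, OVOL2 and PJVK, up to 3 genes with the smallest p per list and line among those past the threshold, genes past it in the same direction in all 3 lines, and the 5 genes most like each member. Genes high in a single group were named after their values were seen. Alternatives were DESeq2 1.42.0, RLE scaling, a filter by a mean count of 10 or none, fitting the compared groups alone, robust dispersion, a replicate block, CPM without TMM, a pseudocount of 5, and leaving out each library.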

Additional observations from a re-analysis of the deposited data

How the results depend on the processing

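Depth limited the gasdermins: their median counts per library were 13 for GSDMA, 36 for GSDMB, 2 for GSDMC, and 32 each for GSDMD and GSDME. The fall of GSDME in KP4 with M2rtTA, its fall averaged over lines with M2rtTA and the differences of GSDMB, GSDMD and GSDME between untreated HPAFII and PATU8988S together and the 3 other lines kept their direction and call in the alternatives run. So did the pairs of untreated lines called for GSDME and GSDMD and the PATU8988S pairs called for GSDMB. With only the groups compared in the fit, 3 calls with M2rtTA were lost: GSDMB averaged over lines (1.00, adjusted p = 0.0608), GSDMD in PK45H (0.70, 0.102) and GSDME in PK45H (-0.84, 0.0908). The call of GSDMD in PK45H was also lost without a filter on low counts (0.64, 0.0886) and with robust dispersion (0.68, 0.0512). The cause of these losses was not tested. Among pairs of untreated lines, KP4 passed as lower than PK45H for GSDMD with DESeq2 (-1.10), robust dispersion (-1.10) and the replicate block (-1.19), and HPAFII against PANC1 for GSDMB was lost with the block (1.18, adjusted p = 0.0503). Other alternatives, leaving out libraries aside, changed no further call of an OVOL2 or untreated contrast. DESeq2 called the difference between the GSDMD changes with and without M2rtTA in PK45H (1.21, adjusted p = 0.0225), and without a filter the change of GSDME with M2rtTA alone in PK45H turned from -0.03 to 0.0035.

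Leaving out 1 library at a time gave these ranges for OVOL2 with M2rtTA: 0.64 to 1.25 for GSDMB averaged over lines, 0.39 to 2.19 for GSDMB in PK45H, 0.48 to 0.80 for GSDMD in PK45H, -1.07 to -0.64 for GSDME in PK45H, 4.49 to 4.89 for GSDMA in PK45H and -0.34 to 0.45 for GSDMA in KP4. Without M2rtTA they were -0.59 to 0.27, 0.019 to 0.81 and 0.16 to 0.63 for GSDMA in KP4, PANC1 and PK45H, -0.13 to 1.14 and -0.49 to 0.33 for GSDMB in PANC1 and PK45H, -0.14 to 0.22 and -0.63 to 0.24 for GSDMD in KP4 and PANC1, and -0.44 to 0.87 for GSDME in PANC1. Changes too small for their sign to hold were found for mCherry against untreated cells, and those of GSDMB, GSDMD and GSDME were not called. For GSDMA, only described, they were -0.24 to 0.87 (KP4), -0.44 to 0.34 (PANC1) and -0.10 to 0.36 (PK45H). The others were GSDMB -0.087 to 0.41 in KP4, GSDMD -0.64 to 0.25 in PANC1, and GSDME -0.065 to 0.18, -0.96 to 0.97 and -0.14 to 0.30 in KP4, PANC1 and PK45H. The same held for M2rtTA alone: GSDMA -0.25 to 0.23, GSDMB -0.94 to 0.31 and GSDME -0.27 to 0.23 in PK45H, GSDMB -0.48 to 0.0074 in KP4 and GSDMD -0.24 to 0.26 in PANC1. For pairs of untreated lines the ranges were, for GSDMA, -0.21 to 0.84 (HPAFII against PANC1), 1.14 to 3.44 (HPAFII against PATU8988S), -0.68 to 0.14 (KP4 against PK45H), -2.99 to -0.93 (PATU8988S against PANC1) and -2.74 to -0.67 (PATU8988S against PK45H). For GSDMB they were 1.00 to 1.67, 0.88 to 1.65 and 0.98 to 1.57 (HPAFII against KP4, PANC1 and PK45H), -0.45 to 0.30 (KP4 against PANC1), -0.35 to 0.18 (KP4 against PK45H) and -0.32 to 0.32 (PANC1 against PK45H). For GSDMD they were 0.65 to 1.40 (HPAFII against KP4), -0.35 to 0.031 (HPAFII against PK45H), -0.69 to 0.37 (KP4 against PANC1), -1.58 to -0.84 (KP4 against PK45H) and -1.47 to -0.56 (PANC1 against PK45H), and for GSDME -1.07 to 0.42 and -0.47 to 1.16 (HPAFII and PATU8988S against PANC1). Signs also did not hold for the difference between the changes with and without M2rtTA in GSDMB (-0.10 to 0.70 in KP4, -0.59 to 0.97 in PANC1) and GSDMD (-0.44 to 0.41 in PANC1).

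Replicate numbers were shared by groups but did not pair libraries: of 18 same-numbered pairs of libraries from 6 pairs of groups, 1 had a correlation of deviations over 0.1, the range being -0.17 to 0.16. With the replicate number as a block, the GSDME change in PANC1 without M2rtTA was 0.13 (adjusted p = 0.945) in place of -0.05, and the block ended no call of a gasdermin but that of GSDMB for HPAFII against PANC1.

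Counts of genes called, the background of the report, moved by over 1.5 times in some alternatives. For the difference between the changes with and without M2rtTA, DESeq2 gave 452 in place of 195 genes in KP4 and 740 in place of 217 in PK45H, where it called GSDMD, and the replicate block gave 112 and 116. In the contrasts of mCherry with untreated cells and with M2rtTA, DESeq2 called 6 to 184 genes, where edgeR called 0 to 79. Among OVOL2 contrasts, the fit of only the groups compared gave 532 in place of 932 genes in KP4, 302 in place of 671 in PANC1 and 628 in place of 1139 in PK45H without M2rtTA, and 1424 in place of 2153 in PK45H with it. Leaving out 1 library gave 471, 343, 701 and 1387 at the lowest. CPM without TMM factors and the other measures of likeness moved 2 values, both of them levels, and left 122 in place, though the order of the genes most like GSDMA changed.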
